A study of Bos grunniens and Bos grunniens x Bos taurus with 2 samples.

Results

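The genes described here are *IL7R*, *ICOS*, *CD28*, *GPR183*, *LTB* and *DPP4*, 6 of the 26961 features of the deposited yak annotation. They were chosen by symbol as genes known from memory and helper T cells, and each symbol belonged to 1 feature. Memory T cells outlive an immune response and are kept alive by interleukin 7, and helper T cells steer other immune cells through cytokines and contact with costimulatory ligands. Both kinds also settle in tissues outside lymph nodes, and the testis interstitium normally holds lymphocytes beside a larger pool of macrophages. *IL7R* (ENSBGRG00000016149) encodes the interleukin 7 receptor chain that signals through JAK kinases and STAT5. *ICOS* (ENSBGRG00000012246) and *CD28* (ENSBGRG00000012545) encode related costimulatory receptors, and *GPR183* (ENSBGRG00000023186) encodes an oxysterol receptor that guides where immune cells settle. *LTB* (ENSBGRG00000013208) encodes the membrane anchor of the lymphotoxin ligand, and *DPP4* (ENSBGRG00000016318), also known as CD26, a surface peptidase of activated and memory T cells that trims chemokines such as CXCL12. In the RefSeq annotation of the assembly Bosgru_T2T1.0, which is another build than that of the files and was used only for neighbours, *CTLA4* lay between *ICOS* and *CD28*, and *LTB* lay next to *TNF*.

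The samples were testis tissue of a yak (*Bos grunniens*) and of a cattle-yak, the hybrid of yak and cattle whose males are sterile, both sexually mature, with no treatment labelled. Each gave 1 library from 1 tissue sample that had been frozen, thawed and digested with collagenase, hyaluronidase and trypsin before droplet capture. The measured values are counts of UMIs (molecular tags that mark 1 captured transcript each) per gene and cell barcode. Both libraries were counted on the yak annotation, so transcripts of cattle alleles in the hybrid could be assigned to yak genes only. The yak library held 60816600 UMIs in 11991 barcodes, and the cattle-yak library 43774841 UMIs in 8930 barcodes. After the limits on depth and mitochondrial share, 10324 and 7092 cells were kept, and 24 barcodes occurred in both libraries. The labels name the cells as germ cells. Yet the clusters that met the naming rule for germ cells held 765 kept yak cells and 144 kept cattle-yak cells. Another yak cluster of 638 cells met no naming rule but had 2 enriched germ cell markers. *SPOCD1*, *UCHL1* and *DMRT1* were among its leading genes. Scrublet called 0 of 11991 yak barcodes as doublets and 251 (2.81%) in cattle-yak. Why none was called in yak was not tested, and the 0 is no sign that this library was free of doublets. No cell was removed for these calls, and an alternative left out the top 10% of the scores. Since each animal gave 1 library, no test between them is possible, a comparison is one of these libraries and not of the crosses, and all 95% intervals cover counting error only.

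The kept cells of each library were clustered without the 6 genes, and clusters were named from lists of markers that hold none of them. T/NK-like clusters, named for T cells and natural killer cells, held 3757 yak cells (36.4%, binomial interval 35.5% to 37.3%) and 1255 cattle-yak cells (17.7%, 16.8% to 18.6%). Of the 23 T/NK markers, 17 are in the annotation. By the naming rule 3 to 10 of them were enriched in the yak clusters of this name and 4 to 8 in the cattle-yak ones. At least 1 UMI was counted for 17 in each of the 5 yak clusters and for 14 to 17 in the 5 cattle-yak ones. Such a count does not set classes apart, since yak cluster 7 also held UMIs of all 15 germ cell markers in the annotation. *CD3E*, *CD2*, *TRAC*, *CD8A* and *CD8B* have no feature of that symbol, so a CD8 gate was not possible. T cells and natural killer cells were not separated, although *CD3D* and *CD3G* are in the annotation. Some T/NK-like cells carried transcripts of other tissue. When the class was clustered again, 49 cattle-yak cells of subcluster 9 had 7.39 CPM (counts per 1000000 UMIs of the same cells) of *PTPRC*, the pan-leukocyte antigen CD45, against 683 CPM over all T/NK-like cells of that library. The summed stromal marker list reached 2013 CPM in that subcluster and 2468 CPM in the 77 cells of subcluster 7, and the EC list, of endothelial markers, 1827 CPM in the 37 cells of subcluster 6. In yak, the 103 cells of subcluster 2 had 995 CPM of the stromal and 1349 CPM of the EC list. Results that rest on all T/NK-like cells were therefore also computed without the clusters that are led by cell cycle genes or low in *PTPRC*, which hold 123 yak and 186 cattle-yak cells and were picked after their values were seen. Another 2132 yak cells and 1837 cattle-yak cells lay in clusters that met no naming rule.

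All 6 genes were concentrated in the T/NK-like cells of both libraries. *IL7R* stood at 434 CPM (Poisson interval 419.8 to 448) in yak T/NK-like cells and at 376 CPM (356 to 397) in cattle-yak T/NK-like cells. In all other kept cells it stood at 17.0 CPM in yak and 3.29 CPM in cattle-yak. *IL7R* thus had 88.1% of its kept yak UMIs and 94.6% of its kept cattle-yak UMIs in T/NK-like cells. Below the T/NK-like class, the order of the yak classes for *IL7R* began with germ-like (25.2 CPM), lymphatic EC-like (22.7 CPM) and macrophage-like cells (21.7 CPM), where EC stands for endothelial cell. The intervals of these 3 classes overlapped, so their order is not resolved.

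The costimulatory receptors were likewise concentrated, with 90.4% of the *ICOS* and 87.6% of the *CD28* UMIs of kept yak cells in the T/NK-like class and 92.0% and 96.2% in cattle-yak. *ICOS* stood at 118 CPM (111 to 126) in yak and 82.8 CPM (73.5 to 92.9) in cattle-yak T/NK-like cells, against 3.63 and 1.10 CPM in all other kept cells. *CD28* stood at 48.6 CPM (43.9 to 53.6) and 35.8 CPM (29.8 to 42.6), against 1.99 and 0.220 CPM elsewhere. In cattle-yak only 5 UMIs of *CD28* fell outside the T/NK-like class among 22772754 UMIs of other cells. For both genes every other named class lay far below the T/NK-like class, and the intervals of neighbouring classes further down overlapped.

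*GPR183* was the exception to the order, because macrophage-like cells reached the level of T/NK-like cells. The yak level was 186 CPM (157 to 219) in 212 macrophage-like cells beside 150.1 CPM (142 to 159) in the T/NK-like class. In cattle-yak the values were 171 CPM (135 to 214) in 102 macrophage-like cells and 160.1 CPM (147 to 174) in T/NK-like cells. The intervals of both classes overlapped in either library, and every further named class was at or below 8.62 CPM in yak and 4.91 CPM in cattle-yak. Macrophages are known to follow oxysterols through this receptor as well.

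The ligand gene *LTB* had its highest level in T/NK-like cells, at 651 CPM (633 to 668) in yak and 589 CPM (564 to 615) in cattle-yak. Macrophage-like cells followed with 84.1 CPM (65.1 to 107) and 76.5 CPM (53.0 to 107), separated from the classes above and below in both libraries. *DPP4* stood at 71.2 CPM (65.5 to 77.2) in yak and 57.0 CPM (49.3 to 65.5) in cattle-yak T/NK-like cells. Its next class was again macrophage-like, with 15.3 CPM (7.90 to 26.7) in yak and 31.5 CPM (17.2 to 52.8) in cattle-yak. In cattle-yak this interval overlapped that of the T/NK-like cells, on 14 UMIs.

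**Figure D1:**
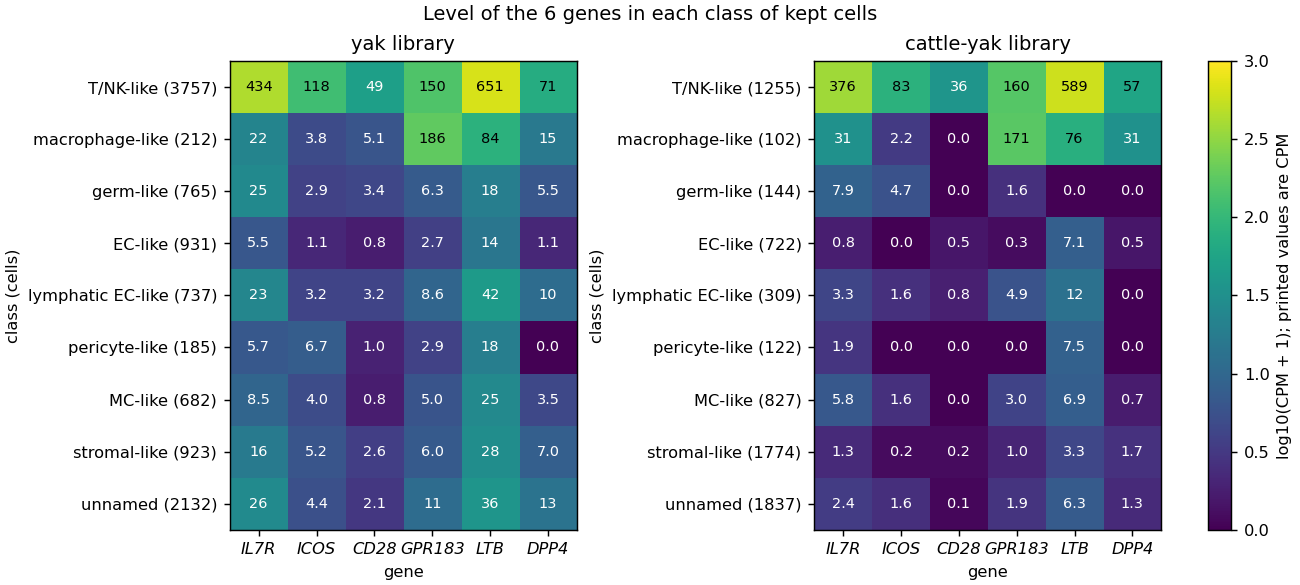
Levels of the 6 genes (columns, CPM printed in each cell, colour on a log10 scale of CPM + 1) in each class of kept cells (rows, number of cells in parentheses) in the yak library (left) and the cattle-yak library (right). The T/NK-like row is the highest for 5 of the 6 genes, and for *GPR183* the macrophage-like row reaches 186 and 171 CPM.

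In yak, the log2 ratios of T/NK-like to all other kept cells, with 1 CPM added to each side, were 4.6 for *IL7R*, 4.68 for *ICOS*, 4.05 for *CD28*, 3.57 for *GPR183*, 4.43 for *LTB* and 3.15 for *DPP4*. In cattle-yak they were 6.46, 5.32, 4.92, 4.73, 6.12 and 4.49 in the same order. All 6 genes passed a log2 ratio of 1 in either library, where 7.42% of the 11099 yak genes and 7.04% of the 9379 cattle-yak genes with at least 100 UMIs did so. The median over the 6 genes was 4.24 in yak, beside -0.53 over all genes tested. In cattle-yak it was 5.12, beside -0.41. All 6 passed this ratio under each of the 10 alternatives for this comparison, the one without the doubted clusters included.

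**Figure D2:**
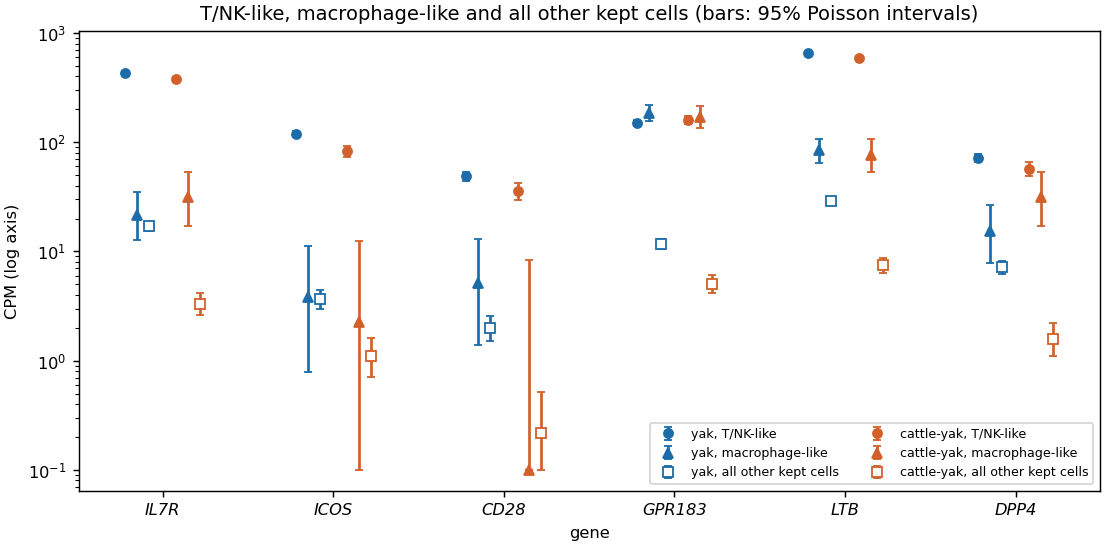
Level of each gene (CPM, log axis) in T/NK-like cells (filled circles), macrophage-like cells (triangles) and all other kept cells, which include the macrophage-like ones (open squares), in yak (blue) and cattle-yak (orange). Bars are 95% Poisson intervals, and values or bar ends below 0.1 CPM are drawn at 0.1 CPM. Circles lie far above squares for every gene, and circle and triangle meet for *GPR183*.

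About every other T/NK-like cell showed at least 1 of these transcripts at equal depth. To compare classes of unequal depth, each cell was thinned to 1000 UMIs, which left 3537 yak and 1211 cattle-yak T/NK-like cells and removed 220 and 44 shallower ones. A UMI of any of the 6 genes was then found in 50.5% (binomial interval 48.9% to 52.2%) of yak and 52.6% (49.7% to 55.4%) of cattle-yak T/NK-like cells. Without thinning the shares were 62.9% and 67.3%. EC-like cells, taken here as a background, showed 2.58% of 893 cells in yak and 0.992% of 706 cells in cattle-yak at the same thinned depth. In yak the other named classes apart from macrophage-like cells ranged from 2.75% (pericyte-like) to 4.68% (germ-like), and unnamed cells had 10.3%. In cattle-yak these classes had at most 1.62% (lymphatic EC-like), and unnamed cells 1.26%. The median depth of EC-like cells before thinning was 4442 and 4519.5 UMIs, and that of T/NK-like cells 1934 and 2391 UMIs.

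By gene, a UMI of *LTB* was found in 31.0% and 33.4% of the thinned T/NK-like cells of yak and cattle-yak, and one of *IL7R* in 24.0% and 23.5%. *GPR183* was found in 8.88% and 12.1%, *ICOS* in 8.91% and 8.84%, *DPP4* in 5.48% and 5.20%, and *CD28* in 4.47% and 3.80%. The shares of the 2 libraries had overlapping intervals for each gene except *GPR183*, with 7.96% to 9.86% in yak and 10.3% to 14.0% in cattle-yak. The background in EC-like cells was 0.448% for *GPR183* in yak and 0 of 706 cells in cattle-yak, which allows a share of up to 0.425%. In macrophage-like cells the thinned share with *GPR183* was 13.8% in yak and 13.3% in cattle-yak, and that with *LTB* 5.32% and 8.16%. These macrophage shares lay above the EC-like background, which for *LTB* was 1.23% and 0.708%. In yak, however, the *LTB* interval of macrophage-like cells (2.58% to 9.56%) overlapped that of lymphatic EC-like cells (2.54%, 1.51% to 3.98%). Macrophage-like cells also held the lymphocyte transcripts *TRDC* (89.2 CPM in yak, 2.25 CPM in cattle-yak) and *NKG7* (70.1 and 47.2 CPM). The part of lymphocyte transcripts in their *LTB* was not tested. *IL7R* in yak germ-like cells (1.83% of 491 cells) had an interval of 0.842% to 3.45% that overlapped that of the yak EC-like share (0.784%, 0.316% to 1.61%), so it was not separated from background.

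*DPP4* also appeared in a group of yak cells whose leading genes are not those of leukocytes. Cluster 13, with 412 cells and no class name, was led by *TNNI1*, *KRT18*, *CA3* and *CYP11A1*, of which *CYP11A1* encodes the enzyme that starts steroid hormone synthesis. It had 5 enriched markers of the MC-like list, of peritubular myoid cells, but did not meet the whole naming rule. It held 68 UMIs of *DPP4* in 60 cells, or 35.1 CPM (27.2 to 44.5). *PTPRC* had 53 UMIs there, and the 3757 T/NK-like cells of the same library had 582 UMIs of *DPP4* and 8803 of *PTPRC*. No UMI of *CD28* was counted in that cluster, beside 1.99 CPM over all kept yak cells outside the T/NK-like class. *IL7R* had 40 UMIs in 13 cells of the cluster. The source of its *DPP4* UMIs was not tested. In cattle-yak, cluster 3, with 296 cells and no class name, also had *TNNI1*, *CYP11A1*, *KRT18* and *CA3* among its leading genes. All 1837 unnamed cattle-yak cells, which include it, held 9 UMIs of *DPP4*, or 1.28 CPM. The yak pattern was thus not seen in the other library. Cluster 13 was singled out after its values were seen.

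Within the T/NK-like cells, the 6 genes were unevenly spread, and 1 cluster per library held most of the *IL7R* UMIs. In yak, cluster 10, led by *CD40LG*, *SLA*, *CXCR6* and *TNFSF14*, held 1242 of the 3757 T/NK-like cells and 2568 of the 3547 *IL7R* UMIs. *CD40LG* encodes the ligand by which helper T cells activate B cells and macrophages. The levels in cluster 10 were 962 CPM for *IL7R*, 275 CPM for *ICOS*, 123 CPM for *CD28*, 355 CPM for *GPR183*, 1260.3 CPM for *LTB* and 167 CPM for *DPP4*. In cattle-yak, cluster 4, with *SLA* and *TNFSF14* among its leading genes, held 347 of 1255 T/NK-like cells and 1011 of 1314 *IL7R* UMIs. There the levels were 1212, 167, 64.7, 417, 1332 and 123 CPM in the same order. *ICOS* and *CD28* reached similar levels in a cattle-yak group with *EOMES* among its leading genes. They stood at 173 and 76.9 CPM in subcluster 2 of the clustering described next. The yak cluster met the T/NK-like rule with 3 enriched markers, the fewest of the 5 yak clusters, and the cattle-yak cluster with 4.

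T/NK-like cells were then clustered again, again without the 6 genes, into 13 yak and 11 cattle-yak subclusters. Apart from subclusters that carried markers of other tissues, 4 patterns stood out by their leading genes. The subclusters led by *CD40LG* had all 6 genes. In yak subcluster 7 (875 cells), *IL7R* stood at 1107 CPM (1061 to 1154), *ICOS* at 288 CPM, *CD28* at 131 CPM, *GPR183* at 434 CPM, *LTB* at 1213 CPM and *DPP4* at 179 CPM. In cattle-yak subcluster 1 (253 cells) the values were 1180.5 CPM (1091 to 1275) for *IL7R* and 198, 98.2, 360.1, 1169.6 and 144 CPM for the other genes in the same order. *CD4* was counted at 32.6 and 34.6 CPM in this pair of subclusters and *NKG7*, a cytotoxic granule gene, at 109.9 and 38.2 CPM.

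Either library had a subcluster that was rich in *TRDC*, the delta chain constant region of gamma delta T cells, and had *CCR6*, a chemokine receptor, and *IL1R1*, an interleukin 1 receptor, among its leading genes. In yak subcluster 12 (47 cells), *IL7R* stood at 1156 CPM (979 to 1356), *GPR183* at 528 CPM (411 to 668) and *LTB* at 3705 CPM (3382 to 4049.8). In cattle-yak subcluster 4 (88 cells), *IL7R* stood at 1205 CPM (1079 to 1342), *GPR183* at 564 CPM (479 to 660.5) and *LTB* at 1624 CPM (1477 to 1782). *CD28* was nearly absent from both, with 0 UMIs in yak, which allows up to 23.0 CPM, and 2 UMIs or 7.28 CPM in cattle-yak. *ICOS* was present at 222 CPM (149 to 319) and 142 CPM (101 to 194), and *DPP4* at 153 and 91.0 CPM. These subclusters had the highest level of *LTB* in either library, with intervals clear of the next subcluster, and the highest level of *GPR183*, whose interval in yak overlapped that of subcluster 7. *CD3D*, a T cell receptor subunit, stood at 498 and 157 CPM in them, *CD4* at 0 CPM in both, and *CD40LG* at 7.65 and 0 CPM.

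A yak subcluster of 92 cells, subcluster 6, led by *CTLA4*, *TNFRSF4* and *SWAP70* and with *IKZF4* and *IL2RA* among its leading genes, combined the highest *ICOS* and *CD28* with less *IL7R* than subclusters 7, 8 and 12. *CTLA4*, *TNFRSF4*, *IKZF4* and *IL2RA* are known from regulatory T cells, which restrain other T cells. *ICOS* stood at 334 CPM (263 to 418) and *CD28* at 207 CPM (152 to 275), the highest values of any yak subcluster, although the *ICOS* interval overlapped those of subclusters 7, 8, 10 and 12. *IL7R* stood at 238 CPM (178 to 309.9), below the 1107 CPM of subcluster 7 with no overlap. *LTB* remained at 1227 CPM (1087 to 1380.0), with *GPR183* at 198 CPM and *DPP4* at 114 CPM. *FOXP3*, the defining factor of regulatory T cells, had 2 UMIs there (8.80 CPM) and 0 in the other 12 yak subclusters. No cattle-yak subcluster had *CTLA4* among its 10 leading genes, and the highest *CTLA4* level there was 12.7 CPM in subcluster 1, against 1218 CPM in yak subcluster 6.

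The large subclusters with most *TRDC* had *LTB* and *IL7R* at lower levels and little of the other genes. Yak subclusters 0, 1 and 5 (544, 537 and 504 cells) had *TRDC* at 2148, 1748 and 1168 CPM. *LTB* stood at 315, 284 and 282 CPM in them and *IL7R* at 152, 194 and 174 CPM. *GPR183* stood at 2.88, 16.4 and 9.11 CPM, *ICOS* at 10.6, 11.2 and 16.2 CPM, and *CD28* at 8.65, 1.73 and 8.10 CPM. Smaller yak subclusters with *TRDC* and *NKG7* had more *ICOS* than these 3. Subcluster 11 (86 cells), with the cell cycle gene *TOP2A* among its leading genes, had *ICOS* at 97.4, *GPR183* at 68.2 and *CD28* at 40.9 CPM. Subcluster 3 (204 cells) had *ICOS* at 61.2, *GPR183* at 36.7 and *CD28* at 27.5 CPM, and subcluster 10 (39 cells) had *LTB* at 877 CPM and *ICOS* at 125 CPM on 5 UMIs. Cattle-yak subclusters 0 and 3 (245 and 178 cells) had *LTB* at 350.1 and 336 CPM, *IL7R* at 75.3 and 65.5 CPM, *GPR183* at 12.3 and 8.19 CPM, and *ICOS* at 0 and 2.73 CPM. Cells with *EOMES* among the leading genes, a factor of cytotoxic T cells, were measured in either library. Cattle-yak subcluster 2 (229 cells) had *ICOS* at 173 CPM (141 to 211) and *CD28* at 76.9 CPM (55.6 to 104), which overlapped the values of the *CD40LG* subcluster, but *IL7R* at 220 CPM (183 to 262), which did not. Yak subcluster 4 (595 cells), also led by *EOMES*, had *ICOS* at 89.9 CPM and *CD28* at 23.1 CPM. Its *IL7R* level of 191 CPM (168 to 217) overlapped those of subclusters 0, 1, 5, 6, 9 and 10. *DPP4* was highest in yak subcluster 8 (103 cells, led by *IL18R1*, *CD4* and *ZBTB6*), at 243 CPM (181 to 319), where *IL7R* stood at 1143 CPM and *GPR183* at only 85.8 CPM (50.8 to 136), but its interval overlapped the 179 CPM (161 to 199) of subcluster 7.

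**Figure D3:**
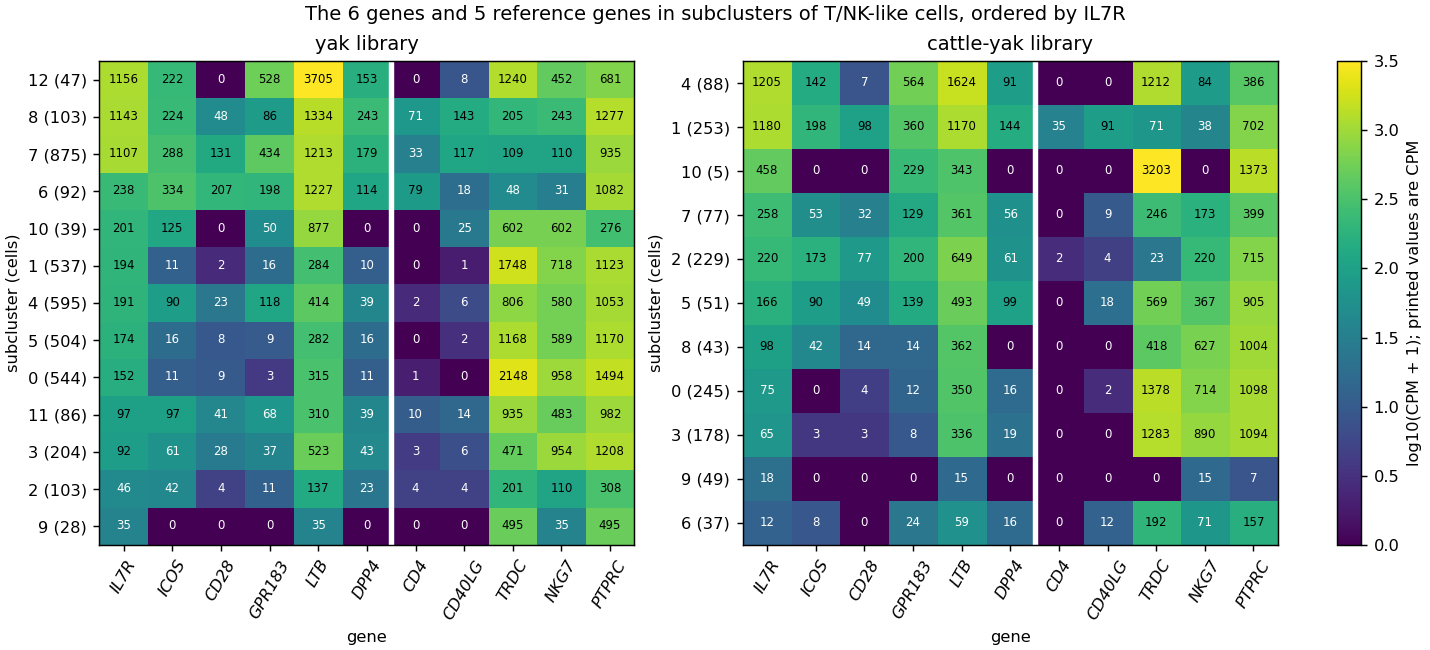
Levels of the 6 genes and of 5 reference genes to the right of the white line (columns, CPM printed, colour on a log10 scale of CPM + 1) in subclusters of T/NK-like cells (rows, number of cells in parentheses, ordered by *IL7R*) of yak (left) and cattle-yak (right). Subclusters 12 in yak and 4 in cattle-yak combine 1240 and 1212 CPM of *TRDC* with high *IL7R* and *LTB* and almost no *CD28*.

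The levels of the 6 genes were also compared between single cells set apart by marker transcripts. Since *CD8A* and *CD8B* could not be used, T/NK-like cells with a UMI of *CD4* and none of *TRDC* were set against cells with *TRDC* and none of *CD4*, 96 against 1699 cells in yak and 19 against 399 in cattle-yak. In yak, *IL7R* stood at 742 against 255 CPM, a log2 ratio of 1.54, and *LTB* at 1107 against 469.7 CPM, a log2 ratio of 1.24. The gap was wider for the other genes. *ICOS* stood at 346 against 35.8 CPM (log2 ratio 3.24), *GPR183* at 354 against 64.2 CPM (2.44) and *DPP4* at 179 against 24.7 CPM (2.81). *CD28* stood at 179 against 8.23 CPM (4.28), on fewer than 100 UMIs in all. Of the 5 genes with at least 100 UMIs in this split, 5 passed a log2 ratio of 1 in yak, where 3.5% of 3689 genes did. The 1956 yak cells with neither marker held 2370 of the 3547 *IL7R*, 732 of the 965 *ICOS* and 319 of the 397 *CD28* UMIs. In cattle-yak, 837 such cells held 901 of the 1314 *IL7R* UMIs. The split therefore leaves most of these transcripts unassigned.

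In cattle-yak, where 19 cells carried *CD4* alone, 3 of the 6 genes had at least 100 UMIs and 2 of these passed, beside 3.48% of 948 genes. *IL7R* stood at 889.9 against 354 CPM (log2 ratio 1.33, conditional interval 0.82 to 1.80) and *LTB* at 1913 against 614 CPM (1.64, 1.30 to 1.97). *ICOS*, *CD28* and *DPP4* also exceeded the ratio but had too few UMIs to enter that count, with 53, 11 and 48. *GPR183* did not pass, with 178 against 149 CPM, and its interval of -0.98 to 1.27 holds both a lower and a more than 2-fold higher level. Counted over all 6 genes whatever their UMIs, 5 exceeded the ratio, and with a mitochondrial limit of 20%, which left 2 such *CD4* cells, 1 did.

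A split by *CD40LG* and *NKG7*, chosen after the data had been seen, gave larger groups of 175 against 1868 yak cells and 41 against 514 cattle-yak cells. Another 1673 yak cells with neither marker held 1960 *IL7R* UMIs, beside 384 in *CD40LG* only and 1053 in *NKG7* only cells. The log2 ratios of *CD40LG* only over *NKG7* only cells were 1.94 for *IL7R*, 2.83 for *ICOS*, 3.16 for *CD28*, 2.22 for *GPR183*, 1.05 for *LTB* and 2.39 for *DPP4* in yak. In cattle-yak they were 2.15 for *IL7R*, 2.27 for *ICOS*, 2.1 for *CD28*, 2.05 for *GPR183*, 1.14 for *LTB* and 2.17 for *DPP4*, with fewer than 100 UMIs behind *ICOS*, *CD28* and *DPP4*. All 6 passed in yak, beside 2.15% of genes, and in cattle-yak the 3 genes with at least 100 UMIs passed, beside 2.44% of genes. *LTB* had the smallest ratio of the 6 under this split in both libraries, and 5 of the 6 genes passed in yak when the doubted clusters were left out.

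**Figure D4:**
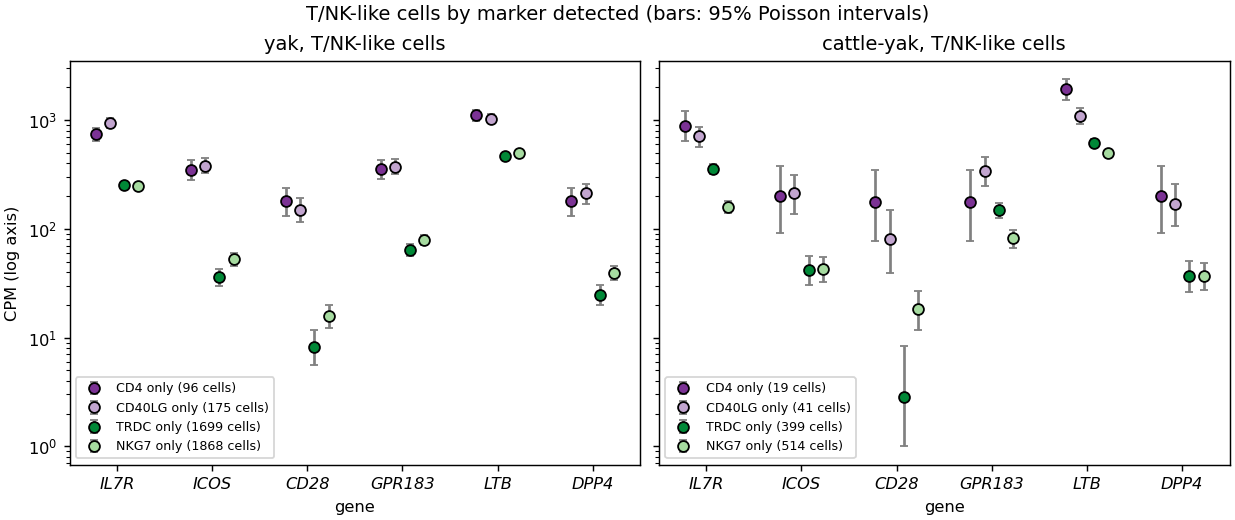
Level of each gene (CPM, log axis) in T/NK-like cells with a UMI of *CD4* only or *TRDC* only, and of *CD40LG* only or *NKG7* only, in yak (left) and cattle-yak (right), with cell numbers in the legend. Bars are 95% Poisson intervals, and bar ends below 1 CPM are drawn at 1 CPM. *CD4* and *CD40LG* cells lie above *TRDC* and *NKG7* cells for each gene, with overlapping bars for *GPR183* between cattle-yak *CD4* and *TRDC* cells.

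The 6 transcripts also tended to occur in the same cells. Among thinned T/NK-like cells, 21.9% of yak and 24.8% of cattle-yak cells had UMIs of 2 or more of them, and 49.5% and 47.4% had none. All 15 pairs were found together more often than the product of their shares in both libraries. That product was taken over the whole class, so differences between its subclusters enter the excess. Joint detection within a subcluster was not tested. The largest excess was that of the costimulatory pair *ICOS* and *CD28*, with 1.24% of yak cells holding both (0.905% to 1.67%) where the product was 0.398%, or 3.13 times the product. In cattle-yak the same pair had 0.991% (0.513% to 1.72%), 2.95 times the product of 0.336%. *IL7R* and *GPR183* were found together in 4.75% of yak and 6.28% of cattle-yak cells, 2.23 and 2.22 times the product. *IL7R* and *LTB* were together in 11.1% and 11.7%, where the products were 7.42% and 7.84%. For 4 pairs in cattle-yak the product lay inside the interval, namely *IL7R* with *DPP4*, and *CD28* with *GPR183*, *LTB* and *DPP4*. No pair did so in yak.

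**Figure D5:**
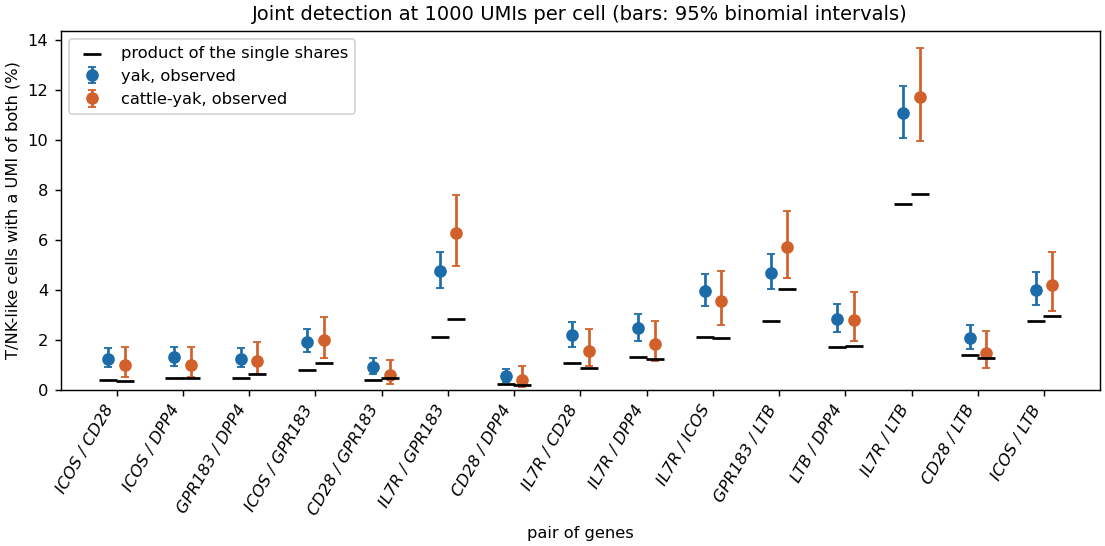
Share of T/NK-like cells, thinned to 1000 UMIs, with a UMI of both genes of a pair (percent, points with 95% binomial intervals) in yak (blue) and cattle-yak (orange), with the product of both single shares as a black dash. Pairs are ordered by the excess in yak, from *ICOS* and *CD28* (3.13 times the product) to *ICOS* and *LTB*.

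Between the libraries the 6 genes differed little in T/NK-like cells. The log2 ratios of cattle-yak over yak were -0.21 for *IL7R* (interval -0.30 to -0.11), -0.51 for *ICOS* (-0.71 to -0.32), -0.43 for *CD28* (-0.74 to -0.15), 0.09 for *GPR183* (-0.05 to 0.24), -0.14 for *LTB* (-0.22 to -0.07) and -0.32 for *DPP4* (-0.56 to -0.09). None of the 6 reached a log2 ratio of 1 in either direction, where 5.53% of 6437 genes were higher in cattle-yak and 4.89% higher in yak by that much. The median over all genes tested was itself -0.21, and the intervals of *IL7R*, *CD28*, *LTB* and *DPP4* hold it, while that of *ICOS* lay below it and that of *GPR183* above it. Mitochondrial transcripts took 13.1% of all UMIs in yak and 22.2% in cattle-yak. With CPM taken without mitochondrial transcripts and a pair of abundant unnamed features, the median of all genes moved to 0.00, *IL7R* to 0.02, *LTB* to 0.08, *GPR183* to 0.32 and *ICOS* to -0.29. Under that scaling 70.6% of the genes past the ratio were higher in cattle-yak, and 53.1% under the main one.

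*IL7R*, *LTB* and, in cattle-yak, *GPR183* also varied with the mitochondrial share of the cells, which differed between the libraries. Of the T/NK-like cells, 13.8% in yak and 63.0% in cattle-yak had a mitochondrial share of 20% to 30%. *IL7R* stood at 690 CPM (639 to 744) in those yak cells and at 399 CPM (385 to 414) in the yak cells under 20%, and in cattle-yak at 494 CPM (464 to 526) against 221 CPM (198 to 246). *LTB* stood at 1029 against 599 CPM in yak and at 719.8 against 416 CPM in cattle-yak. *GPR183* stood at 201 against 106 CPM (89.7 to 123) in cattle-yak, with no overlap, and at 165 (140.3 to 192) against 148 CPM (139 to 157) in yak, with overlap. *DPP4* did not overlap in yak, at 95.2 against 67.9 CPM, and did in cattle-yak, at 56.4 against 57.7 CPM. *CD28* had overlapping intervals in either library, with 60.4 against 47.0 CPM and 37.8 against 33.2 CPM. When cells at 20% or more were left out and the rest clustered anew, 462 cattle-yak T/NK-like cells remained and the ratio of cattle-yak to yak was -0.87 for *IL7R*, -0.61 for *LTB* and -0.54 for *GPR183*. Without the clusters led by cell cycle genes or low in *PTPRC* it was 0.03 for *IL7R* and 0.08 for *LTB*. Other genes varied as well. At 20% to 30% against under 20%, *TRDC* stood at 728 against 955 CPM in yak and 641 against 456 CPM in cattle-yak. *NKG7* stood at 380 against 516 and 339 against 290 CPM, and *CD40LG* at 50.2 against 33.5 and 22.7 against 11.9 CPM. Cattle-yak subclusters 6, 7 and 9, with markers of other tissue, had median mitochondrial shares of 18.4%, 19.2% and 18.3%. The part of the mitochondrial share and of the mix of cells in these differences was not tested.

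The known partners of the 6 genes were spread over several cell classes. *IL7*, the ligand of *IL7R*, was highest in lymphatic EC-like cells of both libraries, at 34.2 CPM (28.3 to 40.9) in yak and 35.2 CPM (25.5 to 47.4) in cattle-yak. The next class, pericyte-like cells, had 6.67 and 3.74 CPM, and T/NK-like cells were lower than other cells, with a log2 ratio of -1.98 in yak. *JAK3*, which signals for this receptor, was highest in T/NK-like cells at 106 and 71.9 CPM, whereas *JAK1* was highest in pericyte-like cells with T/NK-like cells overlapping (380.4 and 359 CPM in yak). *STAT5A* reached its highest level in stromal-like cells in yak (51.0 CPM) and in EC-like cells in cattle-yak (33.5 CPM), overlapping the next class in both. *STAT5B* and *CRLF2* were low in every named class, with at most 9.18 and 1.27 CPM in yak.

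Of the ligands of *CD28*, *CD86* was carried by macrophage-like cells, at 106 CPM (84.3 to 131) in yak and 124 CPM (93.2 to 161) in cattle-yak, against 5.99 and 3.44 CPM in T/NK-like cells. *CD80* stayed at or below 7.34 CPM in every named class. *VAV1*, a signal protein below *CD28*, was higher in macrophage-like (98.1 CPM in yak) than in T/NK-like cells (48.7 CPM), likewise in cattle-yak. *CTLA4*, the inhibitory receptor that competes with *CD28* for these ligands, had 356 UMIs or 43.6 CPM (39.1 to 48.3) in yak T/NK-like cells and 12 UMIs or 3.44 CPM (1.78 to 6.0) in cattle-yak ones. Its log2 ratio of cattle-yak to yak was -3.33, the lowest of the 12 partners with enough counts. *CH25H*, which makes the oxysterol precursor of the *GPR183* ligand, was highest in lymphatic EC-like cells at 10.9 and 9.82 CPM, overlapping the next class, and *HSD3B7*, which breaks the ligand down, did not exceed 2.87 CPM.

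*LTA*, whose product joins that of *LTB* in the membrane-bound lymphotoxin complex, was nearly absent, with 6 UMIs in yak and 1 UMI in cattle-yak T/NK-like cells. *LTBR*, the receptor of that complex, was low throughout, with at most 4.77 CPM in yak and 7.37 CPM in cattle-yak. *MAP3K14*, the kinase below it, was highest in macrophage-like cells at 73.9 and 83.2 CPM. The other ligand of *LTBR*, *TNFSF14*, was highest in T/NK-like cells at 35.0 and 29.5 CPM. *TNF*, the neighbour of *LTB*, had overlapping intervals in macrophage-like (22.9 and 13.5 CPM) and T/NK-like cells (15.7 and 10.0 CPM), and its receptor *TNFRSF1A* was at or below 11.5 CPM in every named class. Around *DPP4*, its binding partner *ADA* was highest in EC-like cells (42.1 and 88.4 CPM). Its substrate *CXCL12* was also highest in EC-like cells (1587 and 1089 CPM) and the receptor *CXCR4* in T/NK-like cells (892 and 659 CPM). *CAV1*, a partner of DPP4 on antigen-presenting cells, was highest in EC-like cells in yak (221 CPM) and in MC-like cells, named for peritubular myoid cells, in cattle-yak (94.4 CPM), there overlapping EC-like cells. Counted by the ratio of T/NK-like to other cells, 6 of 17 partners were higher and 4 lower in yak, where 7.42% of all genes tested were higher and 34% lower. In cattle-yak 4 of 13 were higher and 4 lower, where 7.04% were higher and 26.6% lower. Another 6 partners, *IL2RG*, *TSLP*, *ICOSLG*, *PIK3R1*, *GRB2* and *CYP7B1*, have no feature of that symbol in the annotation.

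Other lists of T cell genes were counted in the same way. Of the memory and homing list, 9 of 13 genes tested were higher in yak T/NK-like cells than in other cells and 3 lower, beside the 7.42% and 34% of all genes tested. *CXCR3* (log2 ratio 3.97), *CD44* (3.57) and *CD27* (3.23) led, and *S1PR1* (-2.82), *KLF2* (-2.29) and *TXNIP* (-1.03) came last. *S1PR1* is the receptor by which T cells leave tissue and lymph nodes, and *KLF2* is the factor that drives it. These ratios are against other kept cells, endothelial ones included, and no comparison with other T cells was made. *KLF2* itself stood at 465 CPM in yak and 591 CPM in cattle-yak T/NK-like cells. The cattle-yak counts were 6 higher and 3 lower of 10, with *CXCR3* (4.43), *CD44* (3.88) and *LEF1* (2.93) first and the same 3 genes last, beside 7.04% higher and 26.6% lower over all genes. Of the helper list, 9 of 10 were higher and none lower in yak, led by *IFNG* (4.15) and *CD40LG* (3.77), with *MAF* at 0.23, and in cattle-yak 1 of 1, *STAT4* (2.72). All 10 T cell receptor genes and all 8 cytotoxic genes tested were higher in yak, as were 4 of 4 and 7 of 7 in cattle-yak, with *CD3D* at 4.90 and 6.21 and *CCL5* at 4.83 and 6.58. Some of these genes also served to name the class, so their direction is no finding.

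Between the libraries, no gene of the memory list was higher in cattle-yak by a log2 ratio of 1. Beside the 4.89% of all genes tested that were higher in yak, the helper list had 3 of 9, *CTLA4*, *IFNG* (-1.27) and *CD4* (-1.08). The T cell receptor list had 1 of 10, *CD3D* (-1.07), and the cytotoxic list 2 of 8, *GZMK* (-2.44) and *CCL5* (-1.41). Of the partners, *CTLA4* and *MAP3K14* (-1.21) were higher in yak and *CAV1* (1.04) in cattle-yak. The *CAV1* ratio rests on 51 UMIs in cattle-yak and 54 in yak, and the gene was highest in EC-like or MC-like cells. The part of T/NK-like subclusters with markers of other tissue in this ratio was not tested. The list medians were -0.27 for memory, -0.93 for helper, -0.71 for T cell receptor and -0.90 for cytotoxic genes, beside -0.21 over all genes tested and -0.26 over the 6 genes. *PTPRC* stood at 683 CPM in cattle-yak and 1077 CPM in yak T/NK-like cells. Cattle-yak subclusters 6, 7 and 9, with markers of other tissue, held 255115, 341103 and 270716 of the 3492220 T/NK-like UMIs. Yak subcluster 2 held 263201 of 8174291. *CD3D* stood at 35.3, 108 and 0 CPM in those cattle-yak subclusters, beside 220 CPM over all T/NK-like cells of that library. The part of these subclusters in the list counts and medians, and that of *PTPRC*, was not tested.

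The genes most alike in pattern were sought by Pearson's r of log2(CPM + 1) over the 44 clusters of both libraries, among 12301 genes. The clusters of a library share its depth and free RNA, so r is a description. Nearest to *IL7R* were *IPCEF1* (0.905), *TNFSF14* (0.891) and *SLA* (0.886), and nearest to *ICOS* were *CD5* (0.906), *IL7R* (0.877) and *CXCR6* (0.874). *CD28* was followed by *TNFSF14* (0.897), *CD5* (0.889) and *CD40LG* (0.882). *GPR183* was followed by *SLA* (0.926), *DPP4* (0.888) and *ARHGAP4* (0.885), and *DPP4* by *SLA* (0.892), *MYO1G* (0.891) and *GPR183* (0.888). *LTB* had other neighbours, *PTPRC* (0.922), *DENND1C* (0.920) and the unnamed feature ENSBGRG00000004074 (0.919). With *TRDC* the r was 0.794 for *LTB*, 0.722 for *IL7R* and 0.537 for *GPR183*, the highest and lowest of the 6 genes being *LTB* and *GPR183*.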

How the data were processed

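The authors deposited raw UMI counts per gene and cell barcode for 1 yak and 1 cattle-yak testis library, without normalization. The headers name Cell Ranger 5.0.0 and the submitters' processing notes 2.1.1, while the paper names another version, and strand handling is not given in the sources used here. Cells were kept where UMIs and genes lay within 2 SD of the library's mean and mitochondrial UMIs made up less than 30%. Log counts per 10000 of 2000 variable genes, without the 6 genes and 38 genes that the study names, were clustered with scanpy 1.11.5 and igraph 0.11.9 (30 components, 15 neighbours, Leiden resolution 1, seed 0; Python 3.11.15, scikit-learn 1.9.0). A class name needed at least 3 markers with a log2 ratio of at least 1 and a UMI in 10% of cells. It also needed more such markers than any other list, and no other list with more markers among the 10 leading genes. Shallow clusters without a marker of the class among those genes stayed unnamed too. Unnamed clusters can thus hold more than 3 enriched markers, such as 8 EC-like and 5 pericyte-like ones in yak cluster 16.

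CPM are summed counts scaled by all UMIs of the same cells, given with exact Poisson intervals, and shares had exact binomial intervals (Clopper-Pearson), all at 95%. Log2 ratios add 1 CPM to each side and so understate changes of low genes, and their exact conditional intervals are without it. Genes with at least 100 summed UMIs counted as tested, and a log2 ratio of 1 as past the fold. A count of 0 was given the limit of 3 counts. No significance test was run, because cells of 1 library are not replicates. Levels of different genes were not tested against each other. Where counts of different genes stand side by side, as for *DPP4* and *PTPRC* in an unnamed yak cluster, they are a description.

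The 6 genes, the lists and the rules were chosen with earlier results of these data known. Named are the 6 genes, the 3 genes most alike to each, every partner, and the highest and lowest 3 genes of the other lists. Leading genes of clusters, the genes by which they are described, and *PTPRC*, *TRDC*, *NKG7*, *CD4* and *FOXP3* were named after their values had been seen. A planned split by *CD4* and CD8 was run with *CD4* and *TRDC*, because the annotation has no *CD8A* or *CD8B*. On simulated counts of cattle-yak against yak over 9673 genes, 100% of 36 genes raised 4-fold and 31.6% of 57 genes raised 2-fold passed the fold. These counts were drawn with counting error only from the profile of the whole yak library. The comparison of T/NK-like cells had 6437 genes tested and another profile, so the shares need not hold there. No sequence is printed. Some results were left out because items in them are not reported here.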

Additional observations from a re-analysis of the deposited data

Results flagged for a closer look

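The 6 genes were also counted in the barcodes that the limits on depth and mitochondrial share had left out, which enter none of the comparisons above. Together they stood at 33.0 CPM in 1667 yak barcodes and at 47.5 CPM in 1838 cattle-yak barcodes, above the 0.122 and 0.171 CPM that a count of 0 would allow. In the kept cells outside the T/NK-like class they summed to 70.6 CPM in yak and 18.7 CPM in cattle-yak, so the yak value lay below that level and the cattle-yak value above it. In the barcodes left out, *LTB* had 11.6 CPM in yak and 18.1 CPM in cattle-yak, and *IL7R* 9.69 and 15.9 CPM. Whether these counts come from cells or from free RNA was not tested.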

How the results depend on the processing

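None of the 6 genes crossed a log2 ratio of 1 under any alternative, neither between T/NK-like and other cells nor between the libraries, over 10 alternatives each. No ratio past the fold changed its direction. Of the 180 alternative values of single genes, 90 lay within the counting interval of the main value and 90 outside it. These intervals are without the added 1 CPM, so a main value can itself lie outside its interval. For *CD28* in cattle-yak T/NK-like against other cells the main value was 4.92 and the interval 6.09 to 9.0. The split is therefore no measure of change beyond counting error. Between the libraries *IL7R* ranged from -0.87 (mitochondrial limit of 20%) to 0.16 (no limits) and *GPR183* from -0.54 to 0.42. The share of cattle-yak T/NK-like cells with a UMI of any of the genes was 45.2% with a mitochondrial limit of 20%, 57.3% without limits and 56.4% at a Leiden resolution of 2. Thinned to 500 UMIs, the shares were 36.9% in yak and 38.2% in cattle-yak, and without thinning 62.9% and 67.3%. A mitochondrial limit of 20% left 462 T/NK-like cattle-yak cells and moved the cattle-yak counts of genes higher in T/NK-like cells to 2 partners, 2 memory, 0 helper and 3 cytotoxic genes, and that of the 6 genes in the *CD4* split, counted without a minimum, from 5 to 1 on 2 *CD4* cells. Without limits 3 helper and 7 T cell receptor genes passed in cattle-yak. Without a minimum of counts, which adds genes with few UMIs, 7 partners, 11 memory, 12 helper and 11 T cell receptor genes passed. A fold limit of 0.58 gave 10 partners in yak. The cause of the other changes was not tested. The alternatives without clusters led by cell cycle genes or low in *PTPRC* and the split by *CD40LG* and *NKG7* were chosen after seeing the data. No paired analysis was possible because each group is 1 library. The depth limits *CD28* and *DPP4* most, and 19 cattle-yak cells with *CD4* leave the *GPR183* ratio there unresolved.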
